A study of Mus musculus with 8 samples.

Results

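The genes described here are 8 mouse members of the Ly6/uPAR domain family, Ly6a, Ly6c1, Ly6d, Ly6e, Ly6g, Plaur, Lypd8 and Cd177, out of 53379 genes listed in every library. They were picked by symbol, with earlier results of these data known, and Ly6g and Cd177 were included because their transcripts, known as neutrophil markers, are abundant in untreated epithelium. RNA sequencing was done on intestinal epithelial cells from the distal colon of C57BL/6 mice, in 4 groups of 2 libraries each. The groups were untreated RORaf/f mice, which carry lox sites in Rora and served as controls (WT in the plots), untreated mice with an intestine-specific Rora knockout, named RORaΔIEC (KO in the plots), and both genotypes after dextran sulfate sodium (DSS). DSS is a polymer that injures the colon lining. It was given in drinking water at 2% (w/v) for 5 days, followed by 3 days of plain water, so the DSS libraries were taken in early recovery. The Cre driver, the age of the mice and the number of animals behind a library are not given in the sources used here, and the cells were shaken off the tissue, with no sort named.

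Ly6/uPAR proteins share a small fold of finger-like loops pinned by disulphide bonds. Most are tied to the outer face of the plasma membrane by a glycosylphosphatidylinositol (GPI) lipid anchor, and some are released. In the colon the family is best known for Lypd8, a heavily glycosylated protein of the surface epithelium that binds bacterial flagella and helps to keep motile bacteria away from the lining, and for Ly6a (Sca-1), which marks the regenerating, fetal-like epithelium that appears after injury. Rora encodes RORα, a nuclear receptor that binds DNA as a transcription factor.

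All 8 are protein-coding genes, and they lie on 3 chromosomes (mm10, GENCODE M21 annotation). Ly6d (minus strand, 74762056 to 74763620), Ly6e (plus strand, 74955051 to 74959905), Ly6a (minus strand, 74994877 to 74998031), Ly6c1 (minus strand, 75044018 to 75048830) and Ly6g (plus strand, 75155240 to 75159126) lie within 397 kb of chromosome 15. Plaur (plus strand, 24462484 to 24475968) and Cd177 (minus strand, 24743983 to 24760311) are 268 kb apart on chromosome 7, and Lypd8 (plus strand, 58379043 to 58390728) is on chromosome 11. RefSeq promoter sequence (GRCm38.p6) was matched for 5 of the members, and 4 of them are shown as the 250 bases before the transcription start, 5′ to 3′ on the gene's strand. Ly6c1 and Ly6g are shown because both were higher in the knockout under DSS and their windows share long identical stretches. Plaur and Cd177 are shown because they lie on the same chromosome, with other family genes such as Lypd3 between them, and have different patterns. In the first pair, capitals mark the 3 runs of at least 12 identical bases. In Plaur they mark the only match to a searched motif.
Ly6c1, chr15:75048838-75049087, minus strand: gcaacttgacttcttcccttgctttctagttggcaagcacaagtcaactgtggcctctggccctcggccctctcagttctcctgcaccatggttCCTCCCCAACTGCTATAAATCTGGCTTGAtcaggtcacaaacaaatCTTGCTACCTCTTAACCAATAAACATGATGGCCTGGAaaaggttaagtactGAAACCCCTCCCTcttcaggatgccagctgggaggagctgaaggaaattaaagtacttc
Ly6g, chr15:75155011-75155260, plus strand: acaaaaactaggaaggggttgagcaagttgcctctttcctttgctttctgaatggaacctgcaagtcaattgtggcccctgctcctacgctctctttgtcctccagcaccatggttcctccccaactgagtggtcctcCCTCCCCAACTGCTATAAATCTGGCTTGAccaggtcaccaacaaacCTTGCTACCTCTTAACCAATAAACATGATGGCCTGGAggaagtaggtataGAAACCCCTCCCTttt
Plaur, chr7:24462233-24462482, plus strand: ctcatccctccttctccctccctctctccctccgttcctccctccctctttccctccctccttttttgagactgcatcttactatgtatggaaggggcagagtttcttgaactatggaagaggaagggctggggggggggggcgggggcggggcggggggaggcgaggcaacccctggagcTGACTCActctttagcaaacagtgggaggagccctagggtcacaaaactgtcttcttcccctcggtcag
Cd177, chr7:24760312-24760561, minus strand: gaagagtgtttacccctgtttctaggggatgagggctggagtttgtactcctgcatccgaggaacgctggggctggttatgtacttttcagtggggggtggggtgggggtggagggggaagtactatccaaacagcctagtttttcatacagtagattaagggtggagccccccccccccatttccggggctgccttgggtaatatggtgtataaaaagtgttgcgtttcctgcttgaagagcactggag
The Ly6c1 and Ly6g windows matched at 172 of 206 aligned bases (83.5%), with a longest identical run of 37 bases. The other pairs of member windows were 50.7% to 67.2% identical, with no identical run over 10 bases. Motifs were searched on both strands of 32851 windows of the same length. TTCNNNGAA, the STAT site, was held by 7.02% of the windows and TGANTCA, the AP-1 site, by 6.75%. AGGTCA, the core half-site of many nuclear receptors, was held by 14% and the longer ROR response element by 0.332%. The core of the interferon-stimulated response element was held by 2.98% and an NF-kB site by 3.9%. The ROR response element as searched ends in AGGTCA or GGGTCA, so its matches can overlap with those of the AGGTCA half-site. In the windows shown, AGGTCA stood 125 to 120 bases before the start of Ly6c1 and 81 to 76 bases before that of Ly6g. TGANTCA stood 69 to 63 bases before that of Plaur, while Cd177 held none of the motifs. Ly6c1 and Ly6g each have another listed start. The window of that Ly6c1 start held none of the motifs, and AGGTCA stood 149 to 144 bases before that Ly6g start. No window of the 5 members held the ROR response element. These are matches of letters, and binding was not measured.

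The libraries held 15971642 to 20418466 expected counts over genes, and 20445 to 21045 genes had a count. A total of 3 counts corresponded to 0.147 to 0.188 CPM (counts scaled to library size), the floor below which a level cannot be read. Rora itself had 12 and 6 counts in the untreated control libraries and 4 and 3 in the untreated knockout, with 16 and 14 in the DSS control and 8 and 5 in the DSS knockout, so the label was checked on few reads. It was lower in the knockout under DSS (log2 fold change −1.24 ± 0.45, adjusted p = 0.0425), and without DSS the difference did not pass (−1.10 ± 0.58, adjusted p = 0.238). The epithelial markers Epcam, Cdh1, Krt8, Krt18, Krt19, Krt20, Vil1, Cdx1 and Cdx2 had counts in all 8 libraries. Mitochondrial transcripts took 7.23% to 8.05% of the counts in the untreated and DSS control libraries and the untreated knockout, and 5.29% and 4.91% in the DSS knockout, and the part of this in the results was not tested. In such bulk samples, fewer cells of a type and less RNA per cell cannot be told apart.

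Levels of different genes are compared here in the deposited TPM, which correct for library size and transcript length. In the untreated control, Lypd8 stood at 12486.9 ± 65.4 TPM (SD, n = 2), and it ranked between 7 and 9 of all listed genes in every library. Ly6e followed at 375 ± 3.2 TPM, then Ly6a at 217 ± 4.23 and Ly6g at 212 ± 6.54, whose library values overlapped. Cd177 stood at 82.7 ± 5.95 TPM, Ly6c1 at 7.05 ± 0.75, Plaur at 3.81 ± 0.0424 and Ly6d at 0.33 in 1 library and 0 in the other. The order was the same in the untreated knockout. In the DSS control Cd177 (226 ± 1.27 TPM) stood above Ly6g (102 ± 14.1), and in the DSS knockout Ly6a (1246.8 ± 27.6) stood above Ly6e (724 ± 16.2) and Ly6g (251 ± 0.311) again above Cd177 (222 ± 5.72). Apart from Ly6a and Ly6g in the untreated control, no neighbours in the order had overlapping library values within a group.

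**Figure D1:**
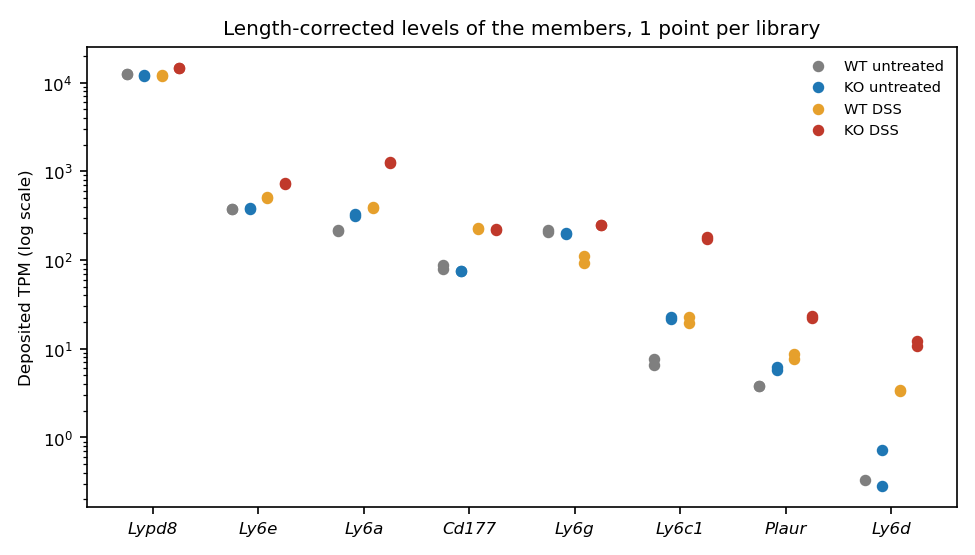
Deposited TPM (log scale) of each Ly6/uPAR member, with 1 point per library and colours for the 4 groups (WT is RORaf/f, KO is RORaΔIEC). Lypd8 lies above the other members in every library, and Ly6d is lowest throughout; its second untreated control library is at 0 and cannot be drawn on this axis.

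Differences of a gene between libraries are given in CPM scaled by library size with TMM factors, and tested with edgeR's quasi-likelihood test on all 14991 genes that passed the filter on low counts, with Benjamini-Hochberg adjustment over all of them and a threshold of 0.05. Changes are log2 fold changes ± SE, each group has n = 2, and the 5 comparisons share libraries, so they are not independent of each other. Ly6g and Cd177 were chosen by their untreated levels, so their differences from untreated libraries are described without a test. All 8 members passed the filter, but Ly6d did so through its DSS libraries alone and is left out of the counts of members.

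Lypd8, the flagella-binding barrier protein, changed by small amounts. Its level was 9230 and 9050 CPM in the untreated control, 8580 and 8460 in the untreated knockout, 8190 and 8120 in the DSS control and 9440 and 9680 in the DSS knockout. In CPM the 2 DSS knockout libraries were the highest of the 8 and the 2 DSS control libraries the lowest. In the deposited TPM the DSS knockout was also highest, but the lowest library was untreated knockout replicate 2 (11964.4). Mean TPM was 12486.9 in the untreated control, 12057.4 in the untreated knockout and 12110.5 in the DSS control. The order of the lower groups and the size of the fall in the control thus depended on the scaling. After DSS, Lypd8 fell in the control (−0.16 ± 0.03, adjusted p = 0.00109) and rose in the knockout (0.17 ± 0.03, adjusted p = 0.000738), and the difference between these responses passed (0.33 ± 0.05, adjusted p = 0.000166). Under DSS the knockout was 1.17-fold higher than the control (0.23 ± 0.03, adjusted p = 5.39e-05). The lower untreated level in the knockout was near the threshold (−0.10 ± 0.03, adjusted p = 0.0469), and it no longer passed when any 1 of the 4 untreated libraries or either DSS control library was left out (adjusted p up to 0.288). For comparison, the summed CPM of 8 surface colonocyte markers was between 6140 and 6460 in the untreated libraries. It was 3550 and 3590 in the DSS control and 2680 and 2800 in the DSS knockout. After DSS, 7 of the 8 were called lower and 1, Ms4a12, higher in each genotype. Of all genes, 18.3% were called lower and 18.9% higher in the control, and 19.8% lower and 21.7% higher in the knockout.

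Among the Ly6 genes of chromosome 15, Ly6a, an interferon-inducible surface antigen, was higher in the knockout with and without DSS. It stood at 126 and 125 CPM in the untreated control, 182 and 177 in the untreated knockout, 211 and 208 in the DSS control and 624 and 669 in the DSS knockout. The groups did not overlap, and the DSS knockout stood apart from the other 3. The knockout was 1.43-fold higher without DSS (0.52 ± 0.05, adjusted p = 5.21e-06) and 3.09-fold under DSS (1.63 ± 0.04, adjusted p = 5.12e-12). Ly6a rose after DSS, 1.67-fold in the control (0.74 ± 0.05, adjusted p = 2.88e-08) and 3.60-fold in the knockout (1.85 ± 0.04, adjusted p = 5.29e-13), and the response in the knockout was the greater one (1.11 ± 0.06, adjusted p = 5.59e-08).

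Ly6c1, a surface antigen that is also known from endothelial cells and leukocytes, had the greatest genotype difference of the members under DSS. It stood at 3.30 and 3.98 CPM in the untreated control, 9.34 and 10.0 in the untreated knockout, 9.31 and 10.6 in the DSS control and 74.4 and 80.5 in the DSS knockout. The untreated knockout and the DSS control overlapped, and the DSS knockout was far above both. The knockout was 2.67-fold higher without DSS (1.42 ± 0.14, adjusted p = 1.08e-05) and 7.77-fold higher under DSS (2.96 ± 0.08, adjusted p = 5.78e-12). The rise after DSS was 2.75-fold in the control (1.46 ± 0.14, adjusted p = 1.86e-06) and 7.98-fold in the knockout (3.00 ± 0.08, adjusted p = 2.07e-12), with a difference of 1.54 ± 0.18 (adjusted p = 3.50e-05). Of the 50-base stretches in annotated Ly6c1 transcripts, 32.8% also occur in another gene, mostly its neighbour Ly6c2 (21.5%), and its expected count was not whole in any of the 8 libraries, so its values rest in part on how RSEM shared reads between copies. Ly6c2, named for this after its values were seen, was low throughout, at 0.100 to 1.55 CPM. Ly6a shares 19% of its stretches with other genes, mostly Ly6c1, but its expected counts were whole in all 8 libraries. The summed CPM of 7 endothelial markers was 5.56 and 4.20 in the untreated control, 2.80 and 3.43 in the untreated knockout, 2.52 and 3.59 in the DSS control and 2.07 and 2.06 in the DSS knockout. Nearly all of it was Pecam1 (1.83 to 5.06 CPM), the 1 endothelial marker with enough counts for the test, and the part of endothelial cells in the Ly6c1 values was not tested.

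Ly6e, an interferon-inducible member with the smallest genotype difference of the 5 Ly6 genes under DSS, stood at 249 and 242 CPM in the untreated control, 240 and 246 in the untreated knockout, 304 and 320 in the DSS control and 409 and 434 in the DSS knockout. The untreated genotypes overlapped (−0.02 ± 0.05, adjusted p = 0.866), while under DSS the knockout was 1.35-fold higher (0.43 ± 0.04, adjusted p = 3.18e-06). Ly6e rose after DSS in the control (0.34 ± 0.05, adjusted p = 4.88e-05) and in the knockout (0.79 ± 0.05, adjusted p = 4.55e-09), and more so in the knockout (0.45 ± 0.06, adjusted p = 0.000230).

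Ly6d, known from squamous epithelium and from early B-lineage cells, was almost absent without DSS. It had 3 and 0 counts in the untreated control, 5 and 2 in the untreated knockout, 23 and 24 in the DSS control and 84 and 77 in the DSS knockout. Without DSS it was therefore at or near the floor, and every DSS library was above every untreated one. From the summed counts, the ratio of DSS to untreated was 17.6 (95% exact interval 5.67 to 88.5, counting error only) in the control and 21.2 (10.0 to 53.5) in the knockout, both given as a description and not as a test, since Ly6d passed the filter through the DSS libraries. Under DSS the knockout was 3.30 times the control (2.37 to 4.68), and the fitted change also passed (1.72 ± 0.27, adjusted p = 0.000181). Of 12 squamous markers, Krt5 and Sprr3 had no counts, and the summed CPM was 10.6 and 10.1 in the untreated control, 17.2 and 15.9 in the untreated knockout, 14.2 and 16.5 in the DSS control and 18.5 and 17.8 in the DSS knockout. Sprr1a alone was 8.95 and 9.83 CPM in the DSS control and 8.57 and 8.47 in the DSS knockout. Among the 6 with enough counts, Krt14 (1.77-fold, adjusted p = 0.0310) and Krt13 (2.58-fold, adjusted p = 0.00338) were called higher in the knockout under DSS. None of the 6 was lower, and 21.3% of all genes were called higher in that comparison. Dsg3 had 1 and 0 counts in the DSS control and 35 and 20 in the DSS knockout. It passed the filter through the DSS knockout alone, so it is given as a description. Fewer of the list, Dsg3 included, were called higher without either DSS control replicate or DSS knockout replicate 2. The summed CPM of 8 B-lineage markers was 1.50 and 1.06 in the untreated control, 1.02 and 1.53 in the untreated knockout, 4.15 and 4.18 in the DSS control and 2.24 and 2.92 in the DSS knockout. It was thus higher with DSS, as Ly6d was, and lower in the DSS knockout than in the DSS control, where Ly6d ran the other way. The part of these cells in the Ly6d values was not tested.

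**Figure D2:**
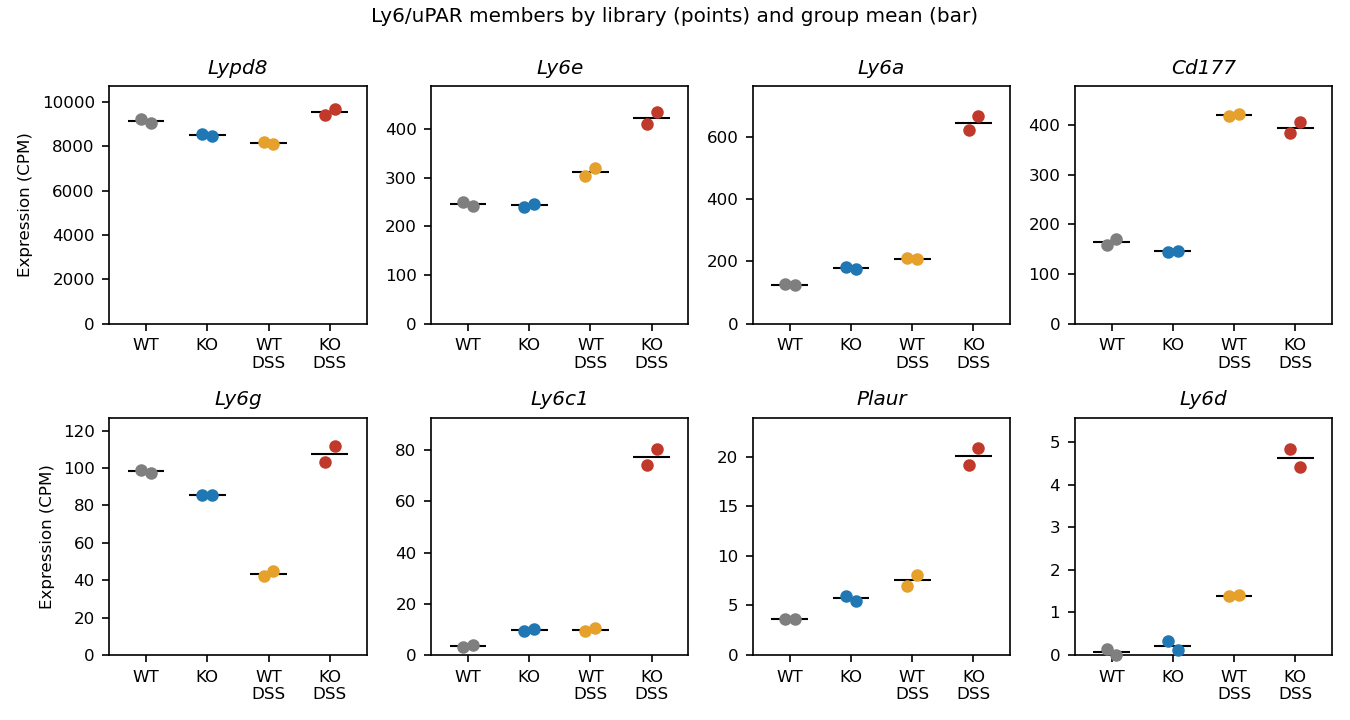
Level in CPM of each Ly6/uPAR member (points, 1 per library) with the group mean (bar); each panel has its own axis from 0. Ly6a, Ly6c1, Plaur and Ly6d are highest in the DSS knockout, while Cd177 is high in both DSS groups and Ly6g is lowest in the DSS control.

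Plaur encodes the urokinase receptor, which holds the protease urokinase at the cell surface and so focuses plasmin formation there. It stood at 3.60 and 3.64 CPM in the untreated control, 5.97 and 5.45 in the untreated knockout, 6.97 and 8.07 in the DSS control and 19.2 and 20.9 in the DSS knockout. The order of the groups was the one seen for Ly6a, with no overlap between them. The knockout was 2.66-fold higher under DSS (1.41 ± 0.11, adjusted p = 1.20e-07), and Plaur rose after DSS, 2.07-fold in the control (1.05 ± 0.14, adjusted p = 4.82e-05) and 3.51-fold in the knockout (1.81 ± 0.11, adjusted p = 9.99e-09). Without DSS the knockout was 1.57-fold higher (0.65 ± 0.15, adjusted p = 0.00824), but this no longer passed without untreated control replicate 1 (adjusted p = 0.0624) or untreated knockout replicate 1 (adjusted p = 0.0875). The response to DSS was greater in the knockout (0.76 ± 0.19, adjusted p = 0.0101), which DESeq2's Wald test did not call (adjusted p = 0.0711).

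The partners of Plaur were followed in a list of 13 genes of the urokinase system, of which 6 had enough counts for the test. Its main ligand, urokinase (Plau), was too low to test, at 0.0560 to 0.629 CPM. Plat, the tissue-type plasminogen activator, stood at 0.200 and 0.280 CPM in the untreated control, 0.381 and 0.122 in the untreated knockout, 1.02 and 1.18 in the DSS control and 11.3 and 10.6 in the DSS knockout. Plat was thus near the floor without DSS and highest in the DSS knockout (3.31 ± 0.21 against the DSS control, adjusted p = 2.57e-08). Itgav, an integrin subunit, rose after DSS in the control (0.83 ± 0.06, adjusted p = 1.96e-07) and in the knockout (0.86 ± 0.06, adjusted p = 5.02e-08). Lrp1, an endocytic receptor, rose after DSS in the control (0.47 ± 0.08, adjusted p = 0.000315) and was lower in the knockout than in the control under DSS (−0.42 ± 0.08, adjusted p = 0.000626). In the list, 2 of 6 were higher and 1 was lower in the knockout under DSS, beside 39.1% of all genes called. The median was −0.01 beside −0.01 over all genes tested. After DSS 4 were higher in the control, and 3 were higher and 1 lower in the knockout. Plat, counted in both, passed the filter through its DSS libraries. The shares called over all genes were 37.2% after DSS in the control, 41.6% after DSS in the knockout and 15.4% between the untreated genotypes. Without DSS 2 were higher and 1 lower in the knockout, and no call was left without untreated control replicate 1 or either untreated knockout replicate, and 1 without untreated control replicate 2. The count of 2 higher under DSS fell to 1 without either DSS control replicate or DSS knockout replicate 1, and the count lower rose to 2 without DSS control replicate 2 or DSS knockout replicate 2. After DSS in the knockout, 5 were higher without DSS knockout replicate 1, and none was lower without untreated knockout replicate 2. After DSS in the control, 1 was lower without either DSS knockout replicate.

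Ly6g and Cd177, both in wide use as neutrophil surface markers, differed from each other in their order over the groups. Ly6g stood at 99.2 and 97.2 CPM in the untreated control, 85.7 and 85.8 in the untreated knockout, 42.2 and 44.7 in the DSS control and 103 and 112 in the DSS knockout. It was thus lowest in the DSS control, at 0.443 times the untreated control, and its DSS knockout libraries were 1.26 times the untreated knockout. Cd177 stood at 159 and 171 CPM in the untreated control, 144 and 147 in the untreated knockout, 418 and 421 in the DSS control and 383 and 406 in the DSS knockout. Every DSS library of Cd177 was above every untreated one, at 2.54 times in the control and 2.71 times in the knockout. Between the DSS groups, a comparison that holds no untreated library but whose result was also known when the members were picked, Ly6g was 2.48-fold higher in the knockout (1.31 ± 0.06, adjusted p = 6.11e-10), while Cd177 did not pass (−0.09 ± 0.05, adjusted p = 0.139). Cd177 was called lower without DSS knockout replicate 2 (−0.13, adjusted p = 0.0187). Ly6c1, whose window before the start site shares the run of 37 bases with that of Ly6g, was 7.77-fold higher in the same comparison. Without DSS, Ly6c1 was 2.67-fold higher in the knockout and Ly6g was 0.873 times the control. After DSS in the control, Ly6c1 was higher and Ly6g lower. Plaur, 268 kb from Cd177, was 2.66-fold higher in the knockout under DSS. Any part of the shared sequence or of position in these levels was not tested. Of the 50-base stretches of Cd177, 5.51% occur in other genes, against 0.448% for Ly6g.

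Other neutrophil genes were set beside both. Of 17 listed neutrophil markers, which exclude Ly6g and Cd177, 5 to 7 had a count in each untreated library, and their summed level was 2.41 to 3.03 CPM. S100a8, Retnlg, Cxcr2, Mmp8, Ngp, Elane and Camp had 0 counts in all 4 untreated libraries, where Ly6g alone stood at 85.7 CPM or more and Cd177 at 144 CPM or more. The summed markers reached 20.1 and 20.0 CPM in the DSS control and 243 and 259 CPM in the DSS knockout, with S100a8 at 1.68 and 2.00 and then 52.9 and 58.3 CPM. Several of the 13 with enough counts, among them Ngp, Mmp8 and Cxcr2, passed the filter through the DSS knockout alone, so no count of calls is given for the list. Itgam, an integrin subunit of neutrophils and macrophages, had counts in every library, at 5.47 and 4.89 CPM in the DSS control and 12.7 and 12.2 in the DSS knockout. Each gene went with the summed markers in part. Cd177, like the sum, was higher with DSS in both genotypes, and Ly6g, like the sum, was higher in the DSS knockout than in the DSS control. Ly6g was lowest in the DSS control, where the sum was above its untreated level, and Cd177 did not pass the test between the DSS groups, where the sum differed. The part of neutrophils in the Ly6g and Cd177 levels was not tested. The sum of 12 monocyte and macrophage markers was 48.5 to 50.8 CPM in the untreated libraries, 77.0 and 76.9 in the DSS control and 158 and 166 in the DSS knockout, and most of it was Cd14 (39.4 to 112 CPM). The part of neutrophils and monocytes in the higher levels of the members in the DSS knockout was not tested.

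**Figure D3:**
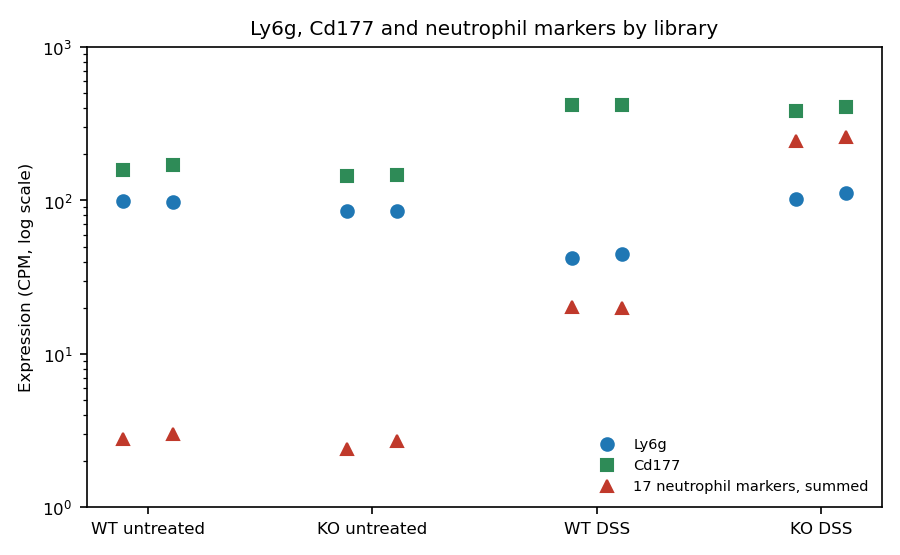
Ly6g, Cd177 and the summed level of 17 other neutrophil markers in each library, in CPM on a log scale. Without DSS the summed markers lie between 2.41 and 3.03 CPM, well below both genes, and they are highest in the DSS knockout at 243 and 259 CPM.

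Counted over the members other than Ly6d, 3 of 5 tested were higher and 1 was lower in the untreated knockout, where 15.4% of all genes tested were called, 9.19% higher and 6.22% lower. Their median log2 fold change was 0.52, beside 0.01 over all genes. The count of called members fell from 4 to 2 without untreated control replicate 1 or untreated knockout replicate 1. Under DSS 6 of 7 were higher in the knockout and none was lower, with Cd177 as the one not called, beside 39.1% of all genes called, 21.3% higher and 17.7% lower. The median was 1.31, beside −0.01 over all genes. After DSS 4 of 5 were higher and 1, Lypd8, was lower in the control, beside 37.2% of all genes, 18.9% higher and 18.3% lower. In the knockout 5 of 5 were higher, beside 41.6% of all genes, 21.7% higher and 19.8% lower. The response to DSS was greater in the knockout for 5 of 5, beside 21.4% of all genes called, 10.8% higher and 10.6% lower. The members were chosen with such results in view, so these counts describe them and are no evidence about the family.

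**Figure D4:**
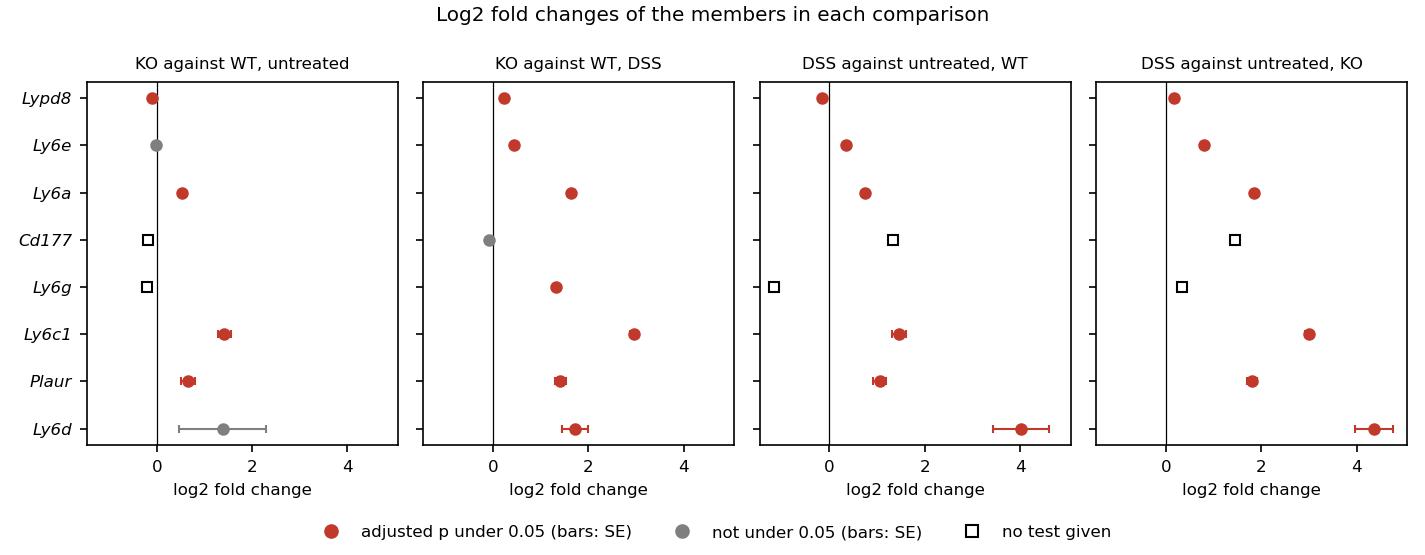
Log2 fold change of each Ly6/uPAR member in 4 comparisons; bars are SE, red marks an adjusted p under 0.05, grey a tested change that did not pass, and open squares mark Ly6g and Cd177 where no test is given. Ly6d is drawn as tested in the panels of DSS against untreated, but it passed the filter through its DSS libraries alone. Its points in those panels are a description and not a test. In the knockout under DSS, 7 members including Ly6d lie to the right of 0 and pass, from Lypd8 at 0.23 to Ly6c1 at 2.96, while Cd177 lies at −0.09.

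Further Ly6/uPAR genes were taken from a list of 42 symbols, of which 38 were listed in the files and 10 had enough counts for the test. Ly6m, which lies between Ly6d and Ly6e on chromosome 15, was the most abundant of them, at 127 and 130 CPM in the untreated control, 215 and 229 in the untreated knockout, 158 and 163 in the DSS control and 204 and 215 in the DSS knockout. Its untreated knockout libraries were about as high as those of the DSS knockout. Ly6m was higher in the knockout without DSS (0.79 ± 0.05, adjusted p = 1.42e-07) and under DSS (0.38 ± 0.05, adjusted p = 2.15e-05). It rose after DSS in the control (0.32 ± 0.05, adjusted p = 0.000153), the change in the knockout did not pass (−0.08 ± 0.05, adjusted p = 0.170), and the responses differed (−0.41 ± 0.07, adjusted p = 0.000805). The change in the knockout passed without DSS knockout replicate 2 (adjusted p = 0.0374).

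The remaining family genes of at least 1 CPM on average were lower. Ly6g6e stood at 17.0 to 25.8 CPM over the libraries and fell after DSS in the control (−0.47 ± 0.08, adjusted p = 0.000438). Spaca4 stood at 14.8 to 18.4 CPM and was lower in the knockout under DSS (−0.29 ± 0.08, adjusted p = 0.00986), a call lost without DSS control replicate 1 (adjusted p = 0.0607). Lynx1, a modulator of nicotinic acetylcholine receptors, stood at 7.51 to 11.6 CPM, rose after DSS in the control (0.52 ± 0.11, adjusted p = 0.00163) and did not differ in level between the DSS groups beyond the error (0.00 ± 0.10, adjusted p = 0.989). Lypd6b stood at 6.04 to 9.37 CPM and Ly6g6d at 1.73 to 4.20 CPM. Ly6g6c stood at 1.34 and 1.40 CPM in the untreated control and 0.288 and 0.229 in the DSS knockout. Its fitted change after DSS in the knockout was −3.20 ± 0.39. Lypd1 and Ly6c2 were under 1 CPM on average and passed the filter through DSS libraries alone, so the counts of calls are given over the 7 genes of at least 1 CPM on average. Ly6g6c, 1 of the 7, passed the filter through the untreated libraries, where it is high, so its changes after DSS are a description. Of the 7, 2 (Ly6m and Lynx1) were higher and none lower in the untreated knockout, beside 15.4% of all genes called. Under DSS 1 was higher and 1 lower in the knockout, beside 39.1%. After DSS 3 were higher and 2 lower in the control, beside 37.2% of all genes called. In the knockout none was higher and 2 were lower, beside 41.6%. Ly6g6c is 1 of the 2 lower in each genotype, a call that the filter favoured. The Lynx1 call was lost without any 1 of the 4 untreated libraries, and 3 genes were higher in the untreated knockout without DSS knockout replicate 2. After DSS in the control 2 were higher without DSS control replicate 1 or untreated control replicate 2, and 1 was lower without untreated control replicate 1 or DSS control replicate 2. After DSS in the knockout, 4 were lower without DSS knockout replicate 2 and 1 without untreated knockout replicate 1.

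**Figure D5:**
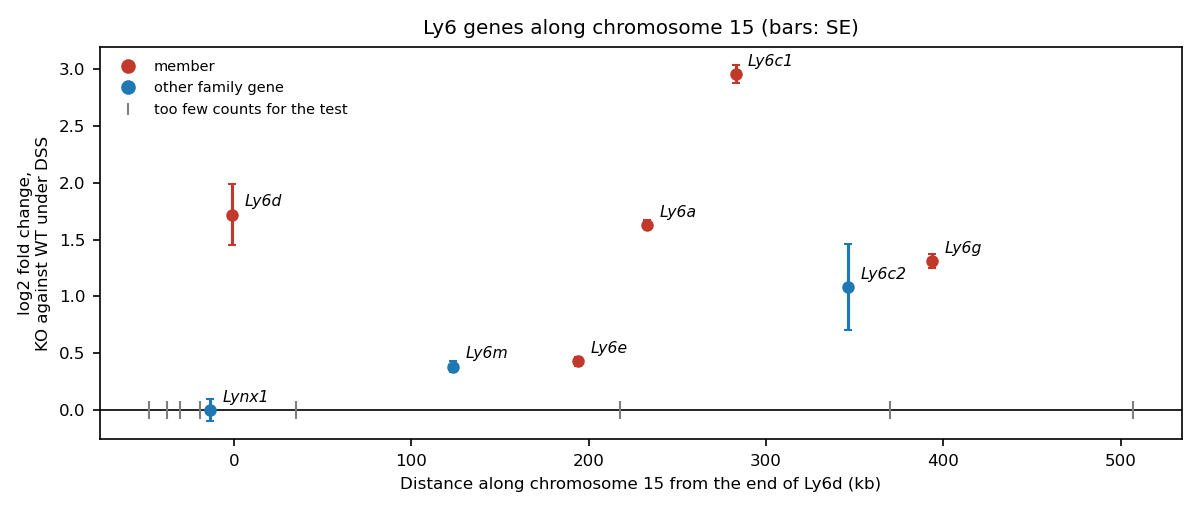
Log2 fold change of the knockout against the control under DSS (bars: SE) for Ly6 genes on chromosome 15, by distance in kb from the end of Ly6d; ticks on the 0 line mark family genes with too few counts for the test. The members range from 0.43 at Ly6e to 2.96 at Ly6c1, Ly6m lies at 0.38 and Lynx1 at 0.00.

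Most of these proteins need a GPI anchor, so 10 genes of its attachment and remodelling were examined. All 10 had enough counts, and their summed level was 575 to 593 CPM in the untreated libraries, 597 and 601 in the DSS control and 643 and 644 in the DSS knockout. Under DSS 3 were higher and 1 was lower in the knockout, with a median of 0.10, beside −0.01 over all genes. Of all genes 39.1% were called in that comparison, 21.3% higher and 17.7% lower. Gpaa1, a subunit of the transamidase that attaches the anchor, was higher (0.30 ± 0.05, adjusted p = 0.000547), and Pgap3, which remodels the anchor's lipid, was lower (−0.32 ± 0.07, adjusted p = 0.00218). After DSS 3 were higher and 3 lower in the control, beside 37.2% of all genes called, 18.9% higher and 18.3% lower. In the knockout 6 were higher and 1 lower, beside 41.6% of all genes called, 21.7% higher and 19.8% lower. Pgap1, an anchor deacylase, rose after DSS in both genotypes (0.96 ± 0.06, adjusted p = 3.73e-08, in the control and 0.54 ± 0.06, adjusted p = 5.47e-06, in the knockout). Without DSS 2 were higher and 2 lower in the knockout, beside 15.4% of all genes called. Fits that each omitted 1 library changed these counts. Between the untreated genotypes, fewer of the 10 were called when any 1 of the 4 untreated libraries was left out. Under DSS, more were higher in the knockout without either DSS knockout replicate. After DSS in the control 1 was higher without either untreated control replicate or DSS control replicate 2, and the lower ones numbered 2 without untreated control replicate 2 or DSS control replicate 1. In the knockout 4 were higher after DSS without either untreated replicate or DSS knockout replicate 2.

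To see which genes had patterns most like those of the members, profiles of log2 CPM over the 8 libraries were centred on their mean and compared by their root-mean-square difference, among tested genes of at least 5 CPM on average. Ly6a and Plaur were each other's nearest gene, at 0.12. Icam1, an adhesion molecule, was next for Ly6a at 0.16, and E2f2, a cell-cycle transcription factor, for Plaur at 0.14. Ly6c1 was nearest to Ido1, a tryptophan-degrading enzyme, at 0.35, which stood at 0.964, 3.80, 5.32 and 33.8 CPM on average in the untreated control, untreated knockout, DSS control and DSS knockout. The nearest gene to Ly6d was Tgfbi at 0.41. Ly6g was nearest to Pole2 (0.18), Rpa2 (0.19) and Dhrs13 (0.20), of which Pole2 and Rpa2 are DNA replication genes. In this order, the 3 genes stood at 3.21, 7.26 and 3.66 CPM in the DSS control and 7.29, 18.1 and 7.14 in the DSS knockout. Cd177 was nearest to Fads3, a fatty acid desaturase family gene, at 0.13, and Ly6e to Ssr2, a subunit of the translocon-associated complex, at 0.04. Lypd8 was nearest to Rpl14, Cdipt and Mapk13, each at 0.02, and these 3 also changed little.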

How the data were processed

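RNA was sequenced from 8 libraries of distal colon epithelial cells. The submitters' processing notes name the tools STAR (2.5.3a), RSEM (1.3.0) and DESeq2 (1.18.1), with mm10 as genome build; their settings are not given in the sources used here. Per the file headers, the authors deposited RSEM gene tables with an expected count, a TPM and an FPKM per gene; the FPKM were not used. Between 9.17% and 9.75% of all listed genes, those without a count included, had an expected count that was not whole (tolerance 0.001). RSEM gives such counts where reads match several genes.

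Expected counts were rounded and tested in R 4.3.3 with edgeR 4.0.16 (quasi-likelihood test, TMM scaling, default filter by group), in 1 fit of 4 group means with 4 residual degrees of freedom. Nothing says that libraries came from separate animals, so p-values measure only the spread between these libraries, which may be technical. DESeq2 1.42.0 served as an alternative, and the script was tested on simulated data. File IDs matched GENCODE M21 for 99.8% of genes, 94.8% with the version; 4 family symbols were found by older RefSeq names.

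The members and lists were chosen with earlier results of these data known. The genes named are the members, family genes of at least 1 CPM on average, and up to 4 per pathway list and comparison by smallest p. Others come from the 3 genes nearest in profile to each member. All 3 are named for Ly6g and Lypd8, and only the nearest of them for the other members. Lypd1 and Ly6c2, below 1 CPM, were named after their values were seen. Other marker lists (T and NK cells, fibroblasts) were also summed: T and NK markers reached at most 5.55 CPM, and fibroblast markers 6.61 to 7.41 CPM in the untreated control, 10.6 and 11.3 in the untreated knockout, 5.05 and 5.24 in the DSS control and 11.1 and 10.9 in the DSS knockout. 1 gene of the urokinase list is not reported here.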

Additional observations from a re-analysis of the deposited data

Results flagged for a closer look

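The response to DSS differed between genotypes, by the interaction term of the edgeR fit, for 5 of the 5 members tested other than Ly6d. Of all genes 21.4% were called by this term, 10.8% higher and 10.6% lower. The members were chosen with earlier results known, so the count only describes them. The change in the knockout exceeded that in the control by 1.11 for Ly6a, 1.54 for Ly6c1, 0.45 for Ly6e, 0.76 for Plaur and 0.33 for Lypd8 (log2 scale; adjusted p = 5.59e-08, 3.50e-05, 0.000230, 0.0101 and 0.000166). For Ly6g the difference was 1.50 and was not tested; every DSS control library lay below and every DSS knockout library above its untreated libraries.

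Among other family genes, the change in the knockout was lower by the interaction term for Ly6m (−0.41, adjusted p = 0.000805) and Spaca4 (−0.36, adjusted p = 0.0322). The fitted term was −1.85 for Ly6g6c and −2.98 for Lypd1. Ly6m kept the call without any 1 library, while Spaca4 lost it in 6 or more of the 8 such fits. Lypd1 had 9, 11, 33 and 6 counts in the untreated control, untreated knockout, DSS control and DSS knockout. It passed the filter through the DSS control alone, where it is high, and Ly6g6c through the untreated libraries, where it is high. The values of Lypd1 and Ly6g6c are thus a description and support no difference.

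In the pathway lists the interaction term was −0.77 for Lrp1 (adjusted p = 0.000256) and −0.43 for Pgap1 (adjusted p = 0.00335). It was 0.26 for Pgap2 (adjusted p = 0.0123) and 0.29 for Pigs (adjusted p = 0.0114). Pgap2 lost the call without untreated knockout replicate 1, and Pigs without untreated knockout replicate 2 or DSS control replicate 2. For Plat the fitted term was 3.25, with 9 counts in the untreated control and 8 in the untreated knockout. Plat passed the filter through its DSS libraries, where it is high, so its value is a description and supports no difference.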

How the results depend on the processing

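No called change of a member reversed under the 15 alternatives, while the Ly6d interaction, which was not called, changed sign when 1 library was left out. The number of genes called moved most: DESeq2's Wald test gave 1246 in place of 2310 for the untreated genotypes, 3801 in place of 5855 under DSS, 3409 in place of 5573 for DSS in the control and 1684 in place of 3208 for the interaction, and effective-length offsets gave 1290 untreated and 1794 for the interaction. Leaving out 1 library at a time gave 953 to 3174, 4093 to 6182, 3659 to 6426 and 1891 to 4444 for these 4, and 4603 to 6263 for DSS in the knockout (6231 with all). Called members ranged from 2 to 4 untreated in these fits. Lypd8 untreated was also lost with the Wald test (adjusted p = 0.0511) and effective-length offsets (0.0719). Untested Ly6g moved from −0.20 to −0.14 untreated, from 0.33 to 0.21 for DSS in the knockout and from 1.50 to 1.39 for the interaction with these offsets. The fitted change of Ly6d, near 0 counts without DSS, ranged from 3.16 to 7.57 for DSS in the control and its interaction from −3.21 to 1.20 (0.34 with all libraries, adjusted p = 0.895).

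Replicate numbers were not shown to pair libraries: deviations of same-numbered libraries correlated at −0.11 to 0.08. A replicate block gave 2186, 5791, 5449, 6142 and 3085 called genes (untreated, under DSS, DSS in the control, DSS in the knockout, interaction) and lost Lypd8 untreated (adjusted p = 0.0666), the one member call it changed. The crossed replicate block, chosen after seeing the data, gave 5186 for DSS in the control.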
